A study of Homo sapiens with 6 samples.

Results

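The 28S expansion segment 27 area, positions 2896 to 3590 of the deposited 28S rRNA sequence, was read in 6 libraries made from RNA of the human embryonic kidney cell line HEK293T/17. Its members were chosen by position and by depth, with 100 or more crossing reads required in each library of a pair, and no measured share entered the choice. All 695 positions passed in the HIV reverse transcriptase pair, 688 in the SuperScript III manganese pair and 681 in the SuperScript III magnesium pair, of 6939 positions in 18S and 28S rRNA together. The 681 passed in all 3 pairs.

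The study asked how reverse transcription reads pseudouridine, an isomer of uridine, after treatment with CMC, a carbodiimide reagent whose bulky adducts form on pseudouridine, U and G. RNA longer than 200 nt was broken into fragments and then treated with CMC or mock-treated. Each was copied with HIV reverse transcriptase (HIV RT) and magnesium, with SuperScript III and manganese, or with SuperScript III and magnesium. This gave HIV RT with CMC and its mock, SuperScript III manganese with CMC and its mock, and SuperScript III magnesium with CMC and its mock, 1 library each, so that no difference below has a replicate check. At each position the mutation share is how many of the crossing reads, in percent, carried a base other than the deposited one, while stops as a percent of stops plus crossing reads are called the stop share. Differences are CMC minus mock, in percentage points (points).

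Expansion segments are stretches that eukaryotic rRNAs carry beyond the core shared with bacteria, and in mammals they are long and rich in G and C. Expansion segment 27 of the large subunit is a mobile arm that can reach the mouth of the tunnel through which the nascent protein leaves, and in yeast it is known to recruit a methionine aminopeptidase there. No well established pseudouridine lies in these positions. The labels describe no alkaline step after CMC, the step that commonly removes it from U and G but not from pseudouridine. The rRNA genes are present in numerous copies that are nearly the same, and a base that differs between copies appears in such tables as a mismatch in every library.

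The deposited letters are rich in G and C, as is known of this expansion segment. G and C made up 87.9% of the segment (321 C and 290 G), with 57 U and 27 A, against 66.5% in the rest of 28S and 83.1% in the expansion segment 7 area (positions 441 to 1310). It held 12 of the 28 runs of 6 or more equal bases in 28S, 9 of C and 3 of G, the longest with 11 C at positions 3332 to 3342. The deposited 28S sequence is 5070 nt long. Of the 28S genes with a length in the RefSeq table of GRCh38.p14, RNA28SN5 has that length and the other 4 have 5054 to 5077 nt.

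Several sequences carry the values that follow, given 5′ to 3′ as DNA letters from the deposited tables. The first is the stretch with the fewest reads (positions 3416 to 3476), where capitals mark the 7 C at 3443 to 3449. The second is the longest CT repeat with 10 nt on each side (3041 to 3077), where capitals mark the repeat, 3051 to 3067. The next 6 are windows of 15 nt around the positions with a shared mismatched base, then come 6 windows around the uridines with the largest rise in stops and 5 around the positions with the highest stop share without CMC. In every window the position itself is in capitals. Positions are counted from 1 at the 5′ end of the deposited 28S sequence, and a change is written as the deposited base, the position and the base read.
fewest reads: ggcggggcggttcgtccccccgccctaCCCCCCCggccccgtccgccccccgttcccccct
CT repeat: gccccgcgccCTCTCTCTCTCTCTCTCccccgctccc
3007: ctcccccGccccacc
3012: ccgccccAccccgcg
3041: cctccccGccccgcg
3050: cccgcgcCctctctc
3337: cgcccccCcccccac
3506: cggcggcAggcggcg
3028: gcgccgcTcgctccc
3388: ggagcggTcgggcgg
3457: ggccccgTccgcccc
3468: ccccccgTtcccccc
3476: tccccccTcctcctc
3564: gccgcggTtccgcgc
3187: gcgggggCacggtcc
3335: cgcgcccCccccccc
3340: cccccccCccacccc
3456: cggccccGtccgccc
3504: ggcggcgGcaggcgg

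Reads were scarce in the segment, and less so after CMC. With HIV RT the median was 6391 crossing reads per position with CMC and 7877 without, which is 9.25% and 3.38% of the median of the rest of 28S. In the manganese pair 8812 and 4301 reads crossed the median position, or 9.97% and 2.32%. In the magnesium pair the numbers were 7791 and 3024, or 9.56% and 2.22%. Relative to the rest of 28S the segment was therefore read 2.73, 4.29 and 4.30 times as deeply in the CMC libraries as in their mocks. This held at 672, 678 and 676 of the 695 positions. In absolute reads the CMC library was the deeper at 104 positions of the HIV RT pair, 571 of the manganese pair and 606 of the magnesium pair. As a ratio of means over positions the depth ratio was smaller, 1.42, 1.73 and 1.63.

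**Figure D1:**
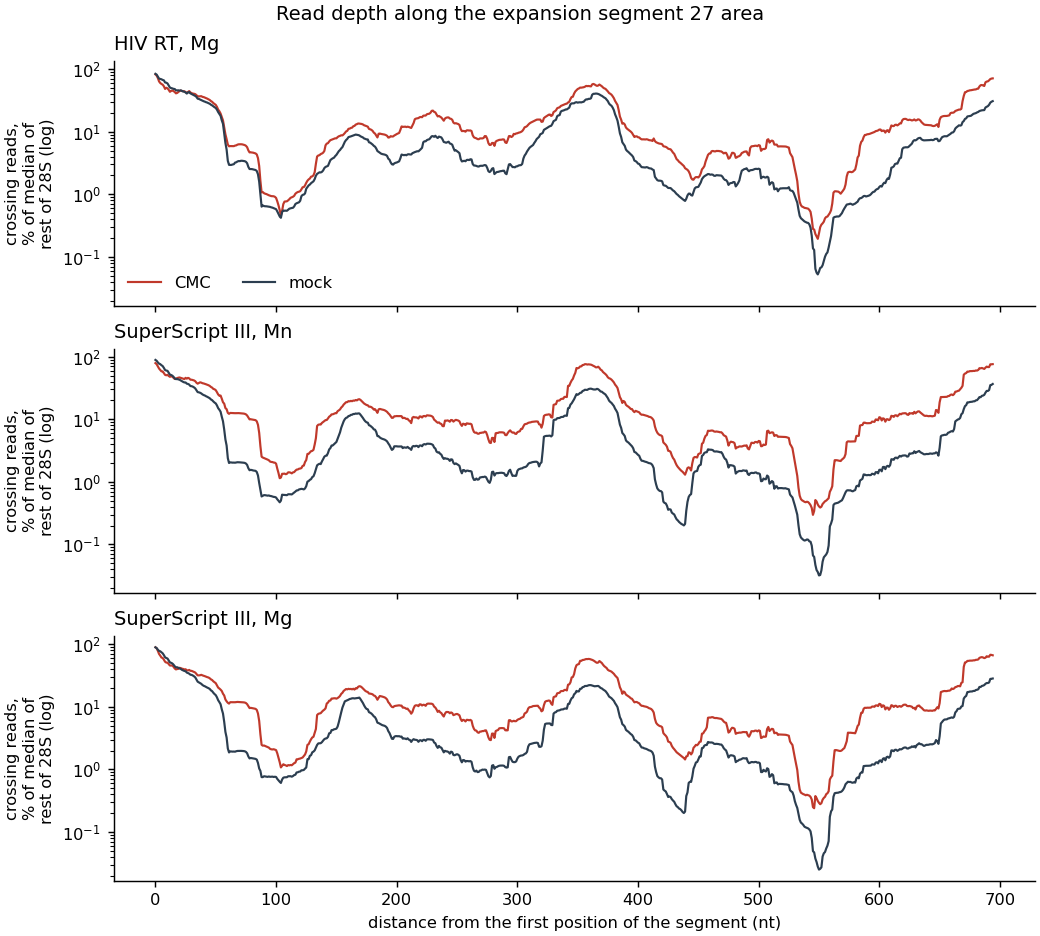
Crossing reads at each of the 695 positions, in percent of the library's median over the rest of 28S (log axis), by distance in nt from position 2896, with CMC in red and mock in dark blue, 1 library a line. The CMC line lies above the mock line at 672, 678 and 676 positions, and both dip near 100 nt and near 550 nt.

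The same was seen in other GC-rich stretches. The expansion segment 7 area had 31.4%, 32.9% and 30.8% of the median of the rest of 28S with CMC, in the order HIV RT, manganese, magnesium, and 16.6%, 10.7% and 9.41% without, ratios of 1.89, 3.08 and 3.27. In 100-nt windows outside the segment with 80% or more G and C (11 windows) the median ratio was 2.33, 3.51 and 3.35. Single windows ranged from 0.986 to 5.38, 1.36 to 7.41 and 1.33 to 6.74. The expansion segment 7 area was not left out of these windows, so the 2 results are not independent. Windows with 60% to under 80% (23 windows) had medians of 1.16, 1.44 and 1.27, and windows under 60% (26 windows) had 1.07, 0.793 and 0.907. The latter ranged from 0.417 to 2.91, 0.318 to 2.01 and 0.284 to 2.46. The 200 positions just 3′ of the segment, with 51.5% G and C, had ratios of 0.763, 0.645 and 0.678. The median depth ratio was thus highest in the windows richest in G and C, with overlap between single windows. The part of base composition in the ratio was not tested.

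Depth was uneven along the segment. Over its first 100 nt the median was 18869 reads (CMC) and 56575 (mock) in the HIV RT pair, 26211.5 and 33697 for manganese, and 19764.5 and 21319 for magnesium. From 3396 to 3495 it was 1732 and 1744, 3489 and 1343, and 2669.5 and 783.5 in the same order. In the 7 windows of the segment, 6 of 100 nt and the last of 95 nt, the ratio of relative depths ranged from 1.12 to 3.35 with HIV RT, 1.63 to 5.44 with manganese and 1.55 to 5.69 with magnesium. It was lowest in the first window and highest from 3396 to 3495 in every condition. Reads were most at position 2896 in all 6 libraries, 56973 (CMC) and 196146 (mock) in the HIV RT pair, 69866 and 164489 for manganese, and 72909 and 121486 for magnesium. The fewest were 134 and 122 at 3445 for HIV RT, 262 at 3441 (CMC) and 59 at 3446 (mock) for manganese, and 195 at 3442 (CMC) and 34 at 3446 (mock) for magnesium, all within the stretch printed first.

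The positions under the minimum of 100 reads were 3443 to 3449 in the manganese pair and 3441 to 3454 in the magnesium pair, in each case through the mock library. At the edge, 3450 with 412 and 115 reads in CMC and mock was kept in the manganese pair and 3449 with 391 and 98 was not. In the magnesium pair 3440 with 269 and 109 reads was kept and 3454 with 364 and 97 was not. The lowest position kept in the HIV RT pair was 3445, with stop shares of 24.7% (CMC) and 18.1% (mock). The median half-width of the 95% Newcombe interval of a difference was 0.264, 0.303 and 0.197 points in mutation share. In stop share it was 0.506, 0.461 and 0.544 points. The widest was 6.40 points for mutation, at 3452 in the manganese pair, and 8.86 points for stop, at 3445 in the HIV RT pair. Intervals cover counting error only, since amplified reads that carry no molecular identifier need not be separate molecules.

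At 6 positions the same base led the mismatches in all 6 libraries and made up at least 5% of crossing reads in each, 0.881% of the 681 tested, against 0.26% of all tested positions of both rRNAs. The mutation share was called as different between CMC and mock in at least 1 pair at 3 of them, A3506, C3050 and C3337.

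At G3041A the deposited G was read as A by most reads. The share with A was 83.5% (CMC) and 82.6% (mock) in the HIV RT pair, 83.0% and 82.1% for manganese, and 85.9% and 85.2% for magnesium. These 6 values span less than 4 points, over 5059 to 10273 reads. The 95% Wilson interval of the lowest was 81.1% to 83.0% and that of the highest 85.2% to 86.6%.

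At A3506G the share with G was 34.5% (CMC) and 27.5% (mock) for HIV RT, 31.4% and 24.3% for manganese, and 37.6% and 33.8% for magnesium. It was higher with CMC in all 3 pairs. The mutation share, all mismatched bases together, rose by 8.08 points with HIV RT and by 5.28 points with manganese, while its difference of 3.96 points with magnesium stayed under the bar of 5 points that a call requires.

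At G3007C the share with C was 9.19% and 9.71%, 8.06% and 10.6%, and 14.6% and 14.0%, CMC first, in the order HIV RT, manganese, magnesium. At A3012C it was 8.51% and 8.98%, 5.64% and 8.28%, and 9.19% and 10.7%. Neither position had a called difference, and both lie among runs of 4 or 5 C with 577 to 1625 reads. The position just under the bar was G3207U, with 4.99% to 6.56% over the 6 libraries.

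At C3050U and C3337A the shares were lower with CMC. At C3050U, the base before the CT repeat, the share with U was 6.08% (CMC) and 9.20% (mock) in the HIV RT pair, 14.7% and 31.1% for manganese, and 16.1% and 38.1% for magnesium. At C3337A, inside the run of 11 C, the share with A was 10.9% and 23.2%, 25.4% and 50.9%, and 19.5% and 49.1%. Each CMC library lay below its mock, and the mutation share fell by 12.5, 26.1 and 30.7 points at 3337. At 3050 it fell by 16.3 points with manganese and 22.1 points with magnesium, and the HIV RT difference of -3.21 points was not called. Wilson half-widths at these 6 positions were at most 4.05 points.

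U was the leading mismatch in all 6 libraries at C3050U and C3068U, the bases on either side of the CT repeat, and at G3048U. It also led in all 6 at C3047, with 0.167% to 4.48% of reads, and at G3046 it did not, where the leading share was 0.155% to 1.07%. At G3048U the share with U was 1.66% (CMC) and 2.56% (mock) with HIV RT, 2.81% and 9.57% with manganese, and 2.54% and 12.4% with magnesium. At C3068U it was 2.90% and 3.45%, 7.002% and 11.5%, and 7.59% and 15.9%. The mutation share fell at 3048 with manganese and magnesium and at 3068 with magnesium. The A that follows the run of 11 C was read as C (A3343C) in 23.8% and 13.2% of reads with HIV RT, 12.6% and 6.29% with manganese, and 15.95% and 4.07% with magnesium, CMC first. There the mutation share rose in all 3 pairs, by 10.1, 6.28 and 12.4 points. Where these bases come from was not tested.

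**Figure D2:**
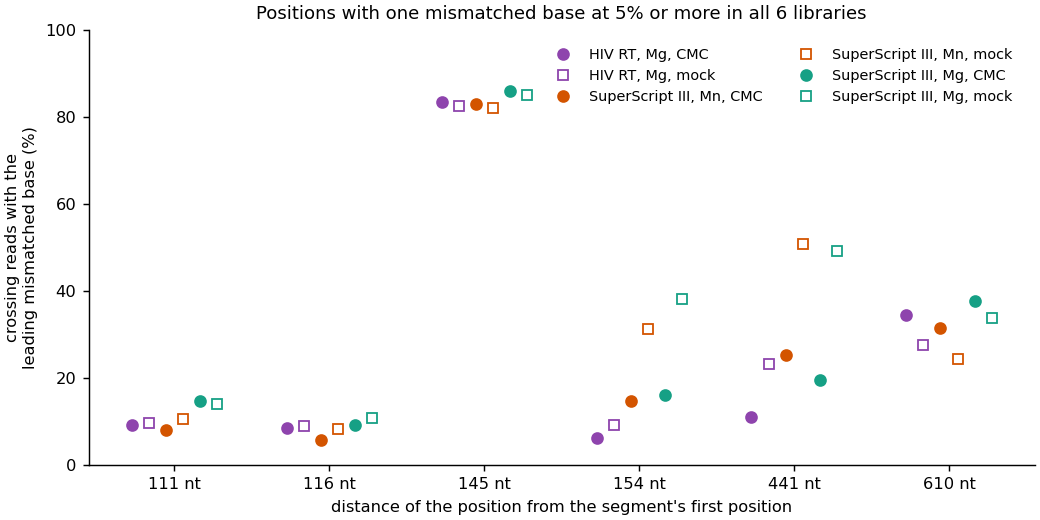
Percent of crossing reads with the leading mismatched base at the 6 positions that share it in all 6 libraries, by distance in nt from position 2896 (111 is 3007, 116 is 3012, 145 is 3041, 154 is 3050, 441 is 3337, 610 is 3506), with CMC as filled circles and mock as open squares, 1 library a point. The points at 145 nt lie between 82.1% and 85.9%, while the mock points of manganese and magnesium stand above their CMC points at 154 and 441 nt.

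Without CMC, the segment's positions had a median mutation share of 0.619% for HIV RT, 0.487% for manganese and 0.114% for magnesium, beside 0.659%, 0.340% and 0.0844% over all positions outside it. With reads pooled over positions the segment's shares were 0.821%, 1.03% and 0.377%. These include G3041, with mock mutation shares of 84.4%, 84.7% and 85.6%. No pooled share was computed outside the segment, so they are not to be set against the medians there. A had the highest median of the 4 bases with SuperScript III, 1.28% with manganese and 0.334% with magnesium, against 0.439% and 0.0871% at A outside the segment. At U the mock medians were 0.827%, 0.473% and 0.112%, against 0.587%, 0.143% and 0.0583% at U outside it. With 1 library per group these differences have no test.

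After CMC the mutation share of the 57 uridines was 1.82% (CMC) and 0.827% (mock) in the HIV RT pair, a median difference of 0.940 points, higher with CMC at 49. With manganese it was 1.39% and 0.473%, a median difference of 0.567 points, higher at 51. With magnesium it was 0.323% and 0.112% over 56 uridines, a median difference of 0.208 points, higher at 51. The 1097, 1096 and 1096 uridines outside the segment, listed pseudouridines included, had median differences of 0.959, 0.775 and 0.135 points. Of these uridines 1037, 1087 and 1062 had a higher mutation share with CMC. Pooled over positions, the difference in the segment was 1.10 points with manganese and 0.445 points with magnesium. C was the leading mismatch at 47, 44 and 40 of 57 uridines with CMC and at 46 of 57, 45 of 57 and 36 of 56 without. Outside the segment C led at 902, 666 and 769 of 1097 uridines with CMC. Without CMC it led there at 758 of 1097, 886 of 1096 and 866 of 1096.

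Positions were then tested one at a time between the CMC and mock library of a pair by Fisher's exact test (two-sided). A position was called where its Benjamini-Hochberg value, taken across every tested position of 18S and 28S, was under 0.05 and the libraries differed by 5 points or more. What is compared is a pair of libraries, not of treatments. For mutation, 4 positions of the segment rose with HIV RT (0.576%, against 1.05% of all positions tested), 8 with manganese (1.16%, against 1.29%) and 4 with magnesium (0.587%, against 0.159%). Those that fell numbered 1 (0.144%, against 0.101%), 8 (1.16%, against 0.332%) and 4 (0.587%, against 0.0868%). Uridines made up 2, 3 and 1 of the rises and none of the falls. Of the U tested over both rRNAs 5.81%, 5.9% and 0.521% rose and 0.173%, 0.0867% and 0.0868% fell.

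With HIV RT the largest mutation rise was at U3457, 22.2% with CMC and 8.78% without. The next were A3343 and A3506, given above. With manganese it was at U3482C, in the stretch of CCT repeats, where the share with C was 12.5% with CMC and 0.774% without. With magnesium the same position had 10.99% and 0.744%, and with HIV RT 5.67% and 1.53%. The other leading manganese rises were at G3543, with mutation shares of 13.7% and 5.13%, and U3372, with 8.43% and 1.32%. With magnesium A3343 came first, U3482 next and then C3341, with 14.6% and 4.67%. For each of these called rises the 95% Newcombe interval of the difference lay above 0, which the call on the same counts all but requires. A3343 was the single position called as rising in all 3 pairs.

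Stop shares at the uridines were mostly higher with CMC. The median stop share of the 57 uridines was 5.71% (CMC) and 1.85% (mock) in the HIV RT pair, a median difference of 3.65 points, higher with CMC at 55. With manganese it was 2.70% and 1.69%, a difference of 0.516 points, higher at 41. With magnesium it was 5.79% and 1.45% over 56 uridines, a difference of 3.06 points, higher at 48. Outside the segment the median differences at U were 3.23, 1.51 and 4.03 points. The stop share there was higher with CMC at 1034 of 1097, 870 of 1096 and 1024 of 1096 uridines, so a rise at most uridines is not particular to the segment. The values in the segment depend on the setting. Pooled over positions they were 2.35 points with manganese and 6.27 points with magnesium, and with stops moved 1 nt 3′ they were 4.86, 1.60 and 1.21 points, so that manganese then lay above magnesium. At C, G and A of the segment the median differences lay between -0.290 and 0.269 points in all 3 pairs.

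By calls, 19 of 57 uridines rose with HIV RT (33.3%, against 37.7% of all U tested), 6 of 57 with manganese (10.5%, against 26.3%) and 22 of 56 with magnesium (39.3%, against 43.8%). With any base, 50, 35 and 41 positions rose, 7.19%, 5.09% and 6.02% of the segment, against 10.1%, 8.38% and 9.22% of all positions tested. In all, 27 uridines were called as rising in at least 1 pair and 4 in all 3, namely U3028, U3282, U3388 and U3564, of which U3282 falls outside the rule for named positions and was added after its values were seen. Over all bases, 80 positions were called as rising in at least 1 pair and 12 in all 3, so most of the 12 were not U. The same counts across pairs were not made outside the segment.

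U3028, followed by C, had stop shares of 30.4% (CMC) and 8.64% (mock) in the HIV RT pair, 42.6% and 17.7% for manganese, and 44.1% and 11.98% for magnesium. The 3 CMC values lie above all 3 mock values. U3564, followed by U, had 24.9% and 7.48%, 36.7% and 15.7%, and 45.0% and 25.3%. U3388, followed by C, had 8.85% and 1.09%, 14.2% and 2.70%, and 13.0% and 3.17%. U3282, followed by G, had 7.42% and 0.978%, 10.3% and 1.59%, and 10.9% and 1.84%. These uridines are grouped here because each was called as rising in every pair. That CMC lay above mock by at least the bar in every condition was therefore fixed by the grouping. Their differences ranged from 6.44 points at U3282 with HIV RT to 32.1 points at U3028 with magnesium.

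At other uridines the conditions parted. U3457 had stop shares of 8.58% (CMC) and 3.95% (mock) with HIV RT, 44.1% and 8.32% with manganese, and 46.8% and 18.2% with magnesium. Its difference of 4.64 points with HIV RT was under the bar, while its mutation rise there was the largest of the segment. U3468 rose with HIV RT (17.9% against 2.25%) and magnesium (29.9% against 5.18%), and its manganese shares were 5.62% and 2.10%, a difference of 3.52 points. U3476 rose with the same libraries (27.8% against 6.71%, and 18.5% against 8.34%), and its manganese shares were 3.78% and 6.19%. No test of a difference between conditions was made.

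The uridine at 3441 is the single U of the segment followed by A, and was added after its values were seen. It had stop shares of 23.4% and 3.34% with HIV RT and 43.7% and 1.60% with manganese, on 193 and 318, and 262 and 123 reads. It was left out of the magnesium pair, where the mock library had 67 reads. Of the other uridines 43 are followed by C, 9 by G and 4 by U. Before a C the median stop difference was 2.83, 0.323 and 2.68 points, against 1.59, 0.248 and 1.98 points at U before C outside the segment. Before a U it was 11.2, 2.37 and 14.6 points over 4 uridines, and outside 5.69, 3.15 and 6.46 points. Outside the segment 187 uridines were followed by A, with median differences of 9.56, 8.26 and 12.6 points. The 8 uridines of the CT repeat, each followed by C, had median stop differences of 2.34, 0.705 and 3.28 points.

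**Figure D3:**
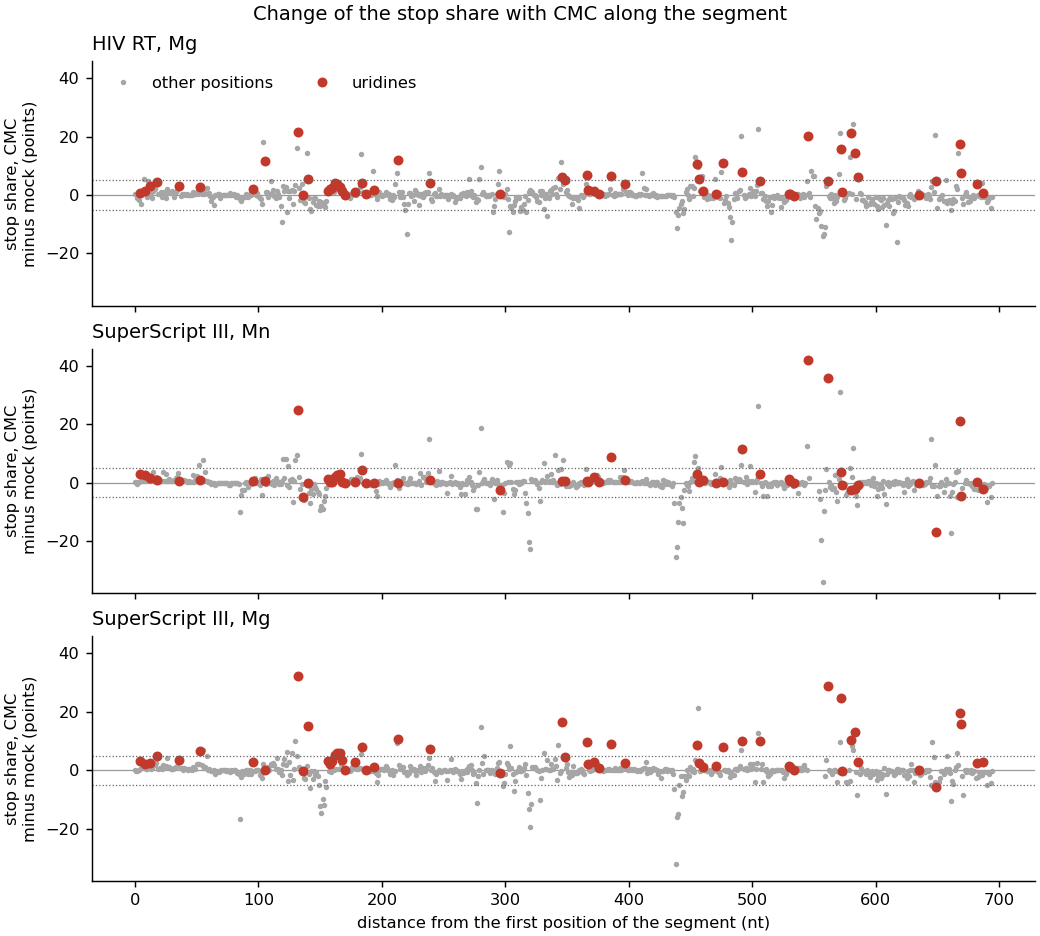
Stop share with CMC minus mock, in points, at each position by distance in nt from position 2896, with uridines as large red points, other bases as small grey points and dotted lines at 5 and -5 points. With HIV RT and magnesium the red points lie mostly above 0 (55 of 57 and 48 of 56), and with manganese 41 of 57 do, and the grey points below -5 near 440 nt lie in the run of 11 C.

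Stops rose at bases other than U as well. The positions with the largest mean rise were G3467 and G3401, each followed by U, and C3478, also followed by U. G3467 had 29.8% (CMC) and 8.54% (mock) in the HIV RT pair, 38.5% and 7.40% for manganese, and 14.8% and 5.29% for magnesium. G3401 had 27.002% and 4.48%, 39.7% and 13.4%, and 24.7% and 11.9%. C3478 had 32.8% and 8.38%, 32.6% and 20.8%, and 24.2% and 17.2%. All 3 were called in every pair. Each lies 1 nt 5′ of a uridine, and G3467 is the neighbour of U3468.

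Stops fell at 32 positions with HIV RT (4.60% of the segment, against 3.66% of all positions tested), at 37 with manganese (5.38%, against 1.98%) and at 30 with magnesium (4.41%, against 1.84%). C accounted for 16, 24 and 20 of them, G for 16, 10 and 8, and U for 0, 2 and 1 (0.0867%, 0.434% and 0.0868% of all U tested fell). That is 4.98%, 7.64% and 6.43% of the C tested in the segment and 5.52%, 3.45% and 2.78% of its G. The shares of all C and all G of both rRNAs that fell were not counted. In the run of 11 C, 4, 7 and 6 positions fell and none rose. The median stop share over that run was 5.24% (CMC) and 9.62% (mock) in the HIV RT pair, 6.60% and 12.1% for manganese, and 10.4% and 13.9% for magnesium. C3334, near the 5′ end of the run, had 4.31% and 10.1%, 15.4% and 41.0%, and 13.4% and 45.6%. C3335 had 6.48% and 17.7%, 17.8% and 39.9%, and 6.46% and 22.6%. In both, each CMC library lay below its mock. Among all 63 C of runs of 6 or more (56 tested with SuperScript III), 5, 8 and 6 fell and 4, 0 and 0 rose. The run was picked out for its length and after its values were seen.

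**Figure D4:**
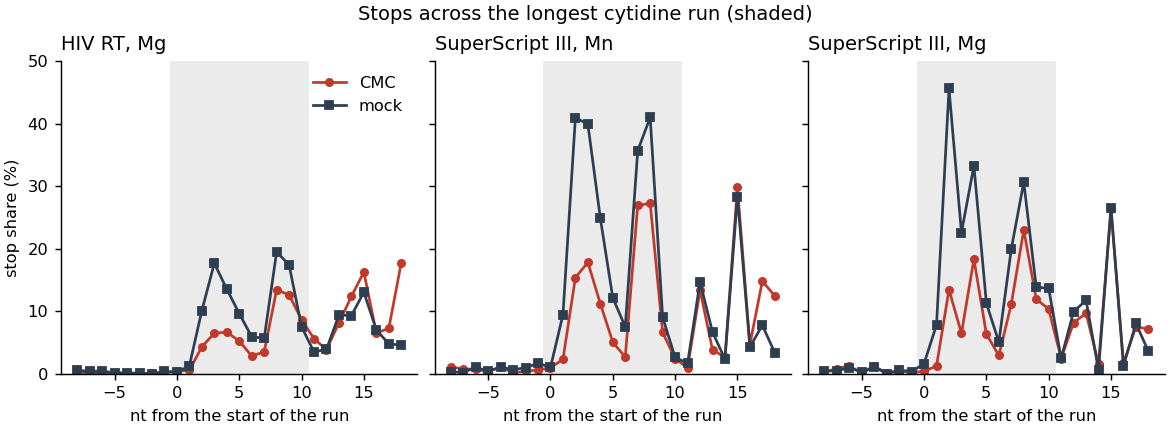
Stop share in percent at each position from 8 nt before to 8 nt after the run of 11 C (shaded, positions 3332 to 3342), by distance from its first position, with CMC as red circles and mock as dark blue squares. In the run the mock line lies above the CMC line at 2 to 9 nt in every panel, and 7 of the 11 positions were called as lower with CMC with manganese.

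Among the other leading falls, the differences at G3513, G3379 and C3216 were unlike in size between the HIV RT and SuperScript III libraries. That contrast was not tested. C3453 was lower with CMC for HIV RT and for manganese. With HIV RT the leading falls were G3513, with stop shares of 11.5% with CMC and 27.5% without, and G3379, with 4.27% and 19.8%. With manganese G3513 had 3.70% and 3.80% and G3379 had 0.533% and 0.769%. With magnesium they had 3.58% and 3.08%, and 0.479% and 1.11%. With manganese the largest was C3453, with 23.9% and 58.0% on 462 and 140 reads, and with HIV RT the same position had 10.6% and 24.5%. With magnesium C3334 came first and C3216 next. C3216 had 18.5% and 38.1% there, and it had 28.1% and 50.8% with manganese and 12.7% and 11.1% with HIV RT.

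A few positions stopped the enzymes without CMC. Stop shares of 20% or more in all 3 mock libraries were found at 2 of 681 positions (0.294%, against 0.101% of all positions tested). G3456 had 39.3% (CMC) and 36.4% (mock) in the HIV RT pair, 49.4% and 44.9% for manganese, and 43.0% and 39.5% for magnesium, on 290 to 668 reads. Its differences of 2.95, 4.53 and 3.51 points were not called. G3504 had 15.5% and 25.9%, 13.7% and 21.1%, and 13.3% and 21.4%, and fell in all 3 pairs. Next in rank by the lowest mock share were C3340 (13.4% and 19.5%, 27.2% and 41.0%, 23.0% and 30.6%) and C3335, both in the run of 11 C, and C3187, which had 17.2% and 20.9%, 8.62% and 14.1%, and 32.1% and 32.3%. G3456 is the neighbour of U3457, and the stretch around both is among the least read of the segment. Wilson half-widths for the stop shares of these 5 positions were at most 4.36 points.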

How the data were processed

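For each library the authors deposited a table of 18S and a table of 28S rRNA, 12 in all. Per the file headers they hold the counts of crossing reads in all and by base and the stops. A fraction of mismatched reads and a fraction of stops are given beside them by the authors. Both fractions were recomputed from the deposited counts and matched within 1e-09. Per the submitters' processing notes, the tools included Trimmomatic 0.32 and Bowtie 1.0. The sources used here do not give their settings, the handling of reads that match several places or the origin of the rRNA sequence. The HIV RT tables carry a different name, and whether reads were treated alike at their edges is not given.

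Library depth, as stops summed over both rRNAs, came to 21206954 and 47002169 in the HIV RT pair, CMC first, 24611914 and 32327311 in the manganese pair, and 23849776 and 23209210 in the magnesium pair. Shares have 95% Wilson intervals and differences 95% Newcombe intervals. Fisher's exact test ran on every position crossed by 100 or more reads in each library of the pair. Python 3.11.15, pandas 2.3.3, numpy 2.4.6, scipy 1.17.1 and matplotlib 3.10.9 were used, and the calls were tested on simulated data. The simulated counts had counting error but no variation between libraries, so they cannot show how many calls are false.

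The positions named were all those with a shared mismatched base, the 6 uridines and 3 other positions with the largest mean stop rise, per condition the 3 rises and 2 falls in mutation and the 2 falls in stops with the largest change, the 5 highest stop shares without CMC, and the extremes of depth. Positions 3046, 3047, 3048, 3068, 3207, 3282, 3441 and 3452 were added after their values were seen. The members and lists were chosen with earlier results of these data known.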

Additional observations from a re-analysis of the deposited data

Results flagged for a closer look

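At 5 positions the stop share was called as higher with CMC in one condition and as lower in another. Such opposite calls were not counted outside the segment, so whether their number is particular to it is not known. At 3199 it was -12.76 points with HIV RT and 5.952 points with manganese. At 3019 it was -5.862 points with HIV RT and 6.134 points with magnesium. At 3481, in the CCT repeats next to U3482, it was 6.333 points with HIV RT, -7.82 points with manganese and -8.477 points with magnesium. The SuperScript III conditions also parted, with 14.99 points (manganese) and -5.074 points (magnesium) at 3541, and -5.111 points (manganese) and 6.014 points (magnesium) at 3562. The difference between conditions was not tested, and with 1 library per group none of these values has a replicate check.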

How the results depend on the processing

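No paired analysis was possible because each group has 1 library and so no replicate numbers to pair, and no replicate could be left out. A fit of treatment with the RT condition as a block, which would take the 3 conditions as repeats, was not run. Of 96 alternatives over 29 results, 41 stayed near their value, 55 moved and 0 reversed. Only the CMC minus mock differences at U could reverse. The other results are counts or shares, which have no sign to change, so the absence of reversals says nothing about them. Values are in the order HIV RT, manganese, magnesium, with CMC before mock. As a mean over positions the segment's depth was 13.4% and 9.50%, 14.95% and 8.65%, and 12.9% and 7.87% of the rest of 28S. Against the rest of 28S and 18S its median was 8.73% and 3.18%, 9.34% and 2.06%, and 8.99% and 1.99%. Against the expansion segment 7 area it was 29.5% and 20.4%, 30.3% and 21.8%, and 31.1% and 23.6%. With reads pooled over positions the mock mutation share was 0.821%, 1.03% and 0.377%. Pooled, the mutation difference at U was 1.10 points with manganese and 0.445 points with magnesium, and the stop difference at U 2.35 and 6.27 points. With stops moved 1 nt 3′ the stop difference at U was 4.86, 1.60 and 1.21 points. With a bar of 2 points, 14, 27 and 7 positions rose and 12, 27 and 9 fell in mutation, and 104, 75 and 100 rose and 108, 95 and 76 fell in stops. With a bar of 10 points, 2, 1 and 2 rose and 1, 3 and 3 fell in mutation, and 23, 12 and 14 rose and 10, 13 and 13 fell in stops. Shared mismatched bases numbered 11 at 2% and 3 at 10%. High stop shares without CMC numbered 21 at 10%, 1 at 30% and 1 with at least 1000 reads. The stretch from 3441 to 3454 is limited by depth, with as few as 34 reads in the magnesium mock library.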
